A study of Mus musculus with 6 samples.

Results

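The S100 genes encode small calcium-binding proteins, and the 8 described here were taken by gene name from the deposited table: S100a1, S100a4, S100a6, S100a8, S100a9, S100a10, S100a11 and S100a13. They are 8 of 55471 gene IDs in the table, and all 8 were among the 13348 genes with enough signal to be tested. Their levels were compared in mouse bone marrow progenitors of 2 genotypes. ME cells carried the leukaemia fusion MLL-ENL. L28BME cells carried MLL-ENL together with LIN28B, which binds RNA, is active in fetal blood formation and keeps let-7 microRNAs from maturing. Both groups therefore share the fusion. All cells were GMLPs, a progenitor population sorted for the absence of lineage markers and CD150 and the presence of Kit, Sca1 and CD48, and then kept for 3 days in culture with doxycycline (DOX). RNA of 3 libraries per genotype was sequenced. The age of the mice, the promoters that drive the transgenes, and whether replicates are separate animals are not stated in the sources used here. The p-values therefore measure only the spread between these libraries, which may be technical.

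Most S100 proteins form dimers, carry a pair of EF-hand calcium-binding loops in each chain, and change shape on binding calcium so that they can grip a partner protein. S100A8 and S100A9 pair as calprotectin, which fills the cytosol of neutrophils and monocytes, withholds metal ions from microbes and, once released, signals through the receptors TLR4 and RAGE. S100A10 and S100A11 bind annexins at membranes, S100A4 binds non-muscle myosin, S100A6 binds the calcyclin-binding protein, S100A1 is best known from muscle, and S100A13 takes part in the release of proteins that lack a signal peptide. In blood formation, calprotectin is known as a product of maturing granulocytes and monocytes.

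The calprotectin genes rose in L28BME, S100a11 and S100a1 fell, and the other 4 did not pass the test. S100a8 was 2.55-fold and S100a9 was 2.75-fold higher in L28BME, whereas S100a11 was 1.21-fold and S100a1 1.32-fold higher in ME. Values are TPM, which correct for transcript length and give every library the same sum, so levels can be compared between genes. Fold changes are on the scale of log2(TPM + 1), which understates the change of genes with low values. A gene was called where limma's adjusted p, by the Benjamini-Hochberg method over all genes tested, was under 0.05. By that rule 2 members were called higher and 2 lower, against 8.28% of all tested genes called higher, 6.60% called lower and 14.9% called in either direction. ME and L28BME values lay fully apart for 5 of the 8 members, against 36.7% of all tested genes. The median log2 fold change was 0.00 over the 8 members, with 2 genes high and 2 low around it, and 0.00 over all tested genes.

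All 8 members lie on mouse chromosome 3, in 2 blocks. In GRCm38, S100a1, S100a13, S100a4, S100a6, S100a8 and S100a9 fall within 184.7 kb, and S100a11 and S100a10 within 44.2 kb, with 2825 kb between the blocks. S100a8 (plus strand, 90668978 to 90670035) and S100a9 (minus strand, 90692632 to 90695721) point toward each other, with 22.6 kb between their 3′ ends. S100a1 (minus strand, 90511034 to 90514392) and S100a13 (plus strand, 90514435 to 90524581) point away from each other, and their starts in the GENCODE annotation are 43 bases apart. The pairs differ in their start regions, so the sequence upstream of S100a8 and S100a9 is shown beside that of S100a4, a neighbour with no called change, and the stretch that S100a1 and S100a13 share. Sequences are RefSeq's for GRCm38.p6 and read 5′ to 3′. The first 3 run on the gene's own strand from 250 bases before to 50 bases after its RefSeq start, and capitals mark the letters TATAAA. They lie at chr3:90668821-90669120 for S100a8, chr3:90695672-90695971 for S100a9 and chr3:90603520-90603819 for S100a4. The shared stretch is the plus strand of chr3:90514281-90514484, and its capitals mark the 106 bases from the RefSeq start of S100a1 (90514330) to that of S100a13 (90514435). RefSeq places the S100a1 start farther from S100a13 than the GENCODE annotation does.
S100a8: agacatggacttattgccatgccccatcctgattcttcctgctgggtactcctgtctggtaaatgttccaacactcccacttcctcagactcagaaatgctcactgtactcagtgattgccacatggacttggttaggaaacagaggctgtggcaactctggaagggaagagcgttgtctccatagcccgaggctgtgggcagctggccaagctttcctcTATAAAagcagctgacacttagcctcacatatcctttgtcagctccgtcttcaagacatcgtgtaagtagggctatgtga
S100a9: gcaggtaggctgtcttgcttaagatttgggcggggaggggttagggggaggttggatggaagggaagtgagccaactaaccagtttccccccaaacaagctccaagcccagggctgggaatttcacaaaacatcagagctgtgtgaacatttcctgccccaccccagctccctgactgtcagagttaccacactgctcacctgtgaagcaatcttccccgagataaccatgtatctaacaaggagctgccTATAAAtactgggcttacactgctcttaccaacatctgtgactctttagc
S100a4: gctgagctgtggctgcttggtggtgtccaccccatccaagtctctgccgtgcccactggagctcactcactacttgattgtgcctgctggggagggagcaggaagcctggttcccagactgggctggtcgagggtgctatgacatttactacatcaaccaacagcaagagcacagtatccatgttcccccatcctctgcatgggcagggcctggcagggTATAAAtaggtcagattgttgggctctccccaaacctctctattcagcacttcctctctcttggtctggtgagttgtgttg
S100a1 and S100a13: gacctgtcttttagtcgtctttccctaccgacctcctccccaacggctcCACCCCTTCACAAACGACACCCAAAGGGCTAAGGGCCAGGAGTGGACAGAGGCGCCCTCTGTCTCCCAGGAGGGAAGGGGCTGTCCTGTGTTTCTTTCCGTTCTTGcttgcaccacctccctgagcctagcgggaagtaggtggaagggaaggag

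Windows of this length were at hand for 7 of the 8 members and for 32851 annotated starts in all. The TATA box letters TATAAA, sought on both strands, occurred once each in the S100a8, S100a9 and S100a4 windows and in 13.6% of all windows. They begin at -30 in S100a8 and -31 in S100a4, counted from the RefSeq start as 0, and at the RefSeq start itself in S100a9. The GENCODE start of S100a8 (90668978) lies upstream of its RefSeq start, and these letters lie between the 2 starts. The windows of the calprotectin genes held few CG pairs, with 4 in S100a8 and 2 in S100a9, and those of S100a4 and S100a6 held 2 and 6. The windows of S100a1, S100a13 and S100a11 held 11, 14 and 15, where the median of all windows was 7. A C/EBP motif, TTNCNNAA on either strand, was found once in S100a8, 2 times in S100a9 and in none of the other member windows, against 40.7% of all windows. Its stricter form TTGCNNAA, a subset of these matches, was found once, in S100a9 (10.8% of all windows). The PU.1 letters GAGGAAG were present in S100a8 and S100a4 (13.6%). The AP-1 letters TGANTCA were found 2 times in S100a11 (7.81%). The GC box letters GGGCGG were found once in S100a9 and 3 times in S100a11 (35.7%). The STAT letters TTCNNNGAA were in no member window (8.30%). These matches describe letters only and do not show that a factor binds.

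S100a8 and S100a9, the calprotectin subunits, were the members with the largest difference between groups. S100a8 (ENSMUSG00000056054) was at 94.4, 91.9 and 95.2 TPM in ME and at 240.3, 241 and 240.3 TPM in L28BME. The groups were far apart, and the L28BME values lay within 1 TPM of each other. Its mean was 93.8 ± 1.71 TPM in ME and 240.6 ± 0.423 TPM in L28BME (SD, n = 3 per group), a log2 fold change of 1.35 with SE 0.029 (95% interval 1.28 to 1.42, limma adjusted p = 1.88e-05). S100a8 had the gene-wise p ranked 2 among the 13348 tested genes and the log2 fold change ranked 61 from the top.

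S100a9 (ENSMUSG00000056071) was at 80.9, 90.7 and 85.5 TPM in ME and at 243, 226 and 242 TPM in L28BME. Every L28BME value was above every ME value, and L28BME replicate 2 was the lowest of its group. Its log2 fold change was 1.46 with SE 0.053 (95% interval 1.33 to 1.59, limma adjusted p = 1.18e-04), ranked 46 from the top of all tested genes. Without any 1 of the 6 libraries the adjusted p lay between 3.52e-04 and 0.00104 for S100a8 and between 7.13e-04 and 0.00246 for S100a9.

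The ratio between the subunits overlapped between the groups. The ratio of S100a8 to S100a9 TPM was 1.17, 1.01 and 1.11 in ME and 0.989, 1.06 and 0.993 in L28BME. The transcripts of both subunits thus stood near parity in each group. Their summed level was 175 to 183 TPM in ME and 467 to 483 TPM in L28BME. As a share of the summed TPM of the 8 members, the pair made up 11.96 to 12.15% in ME and 28.1 to 28.5% in L28BME. The other 6 members together were at 1284 to 1344 TPM in ME and 1195 to 1225 TPM in L28BME, which do not overlap. Among these 6, the means of S100a11, S100a1, S100a13 and S100a6 were lower in L28BME, and those of S100a4 and S100a10 higher. S100a11, the most abundant, had means of 522 TPM in ME and 431 TPM in L28BME. Bulk RNA cannot tell apart more cells with these transcripts from more transcripts in each cell.

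**Figure D1:**
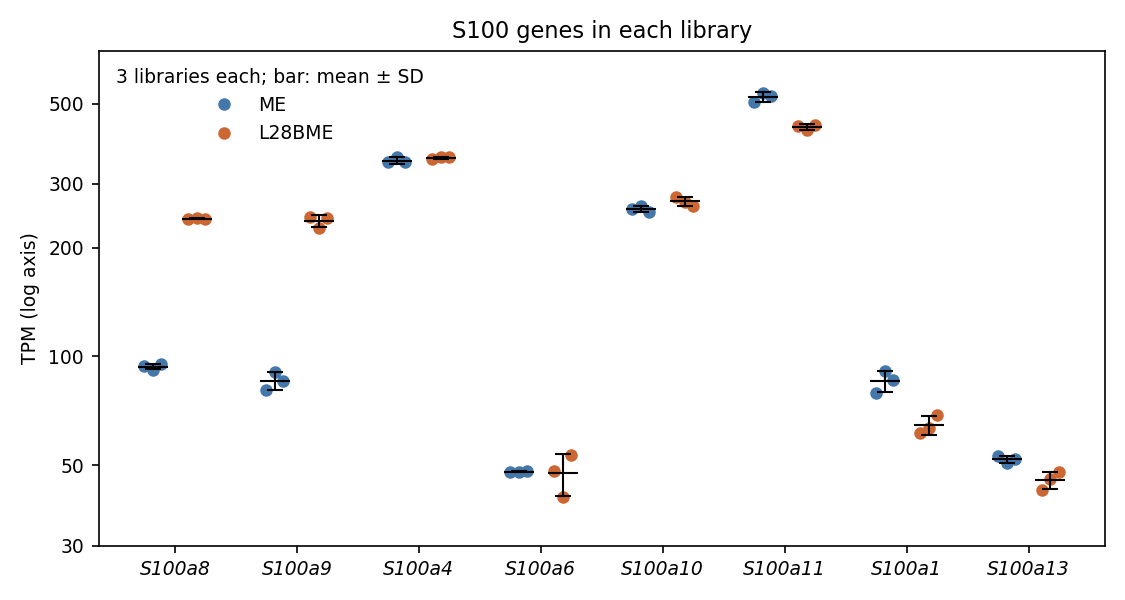
TPM (log axis) of the 8 S100 genes in each library, ME in blue and L28BME in orange, with mean and SD of 3 libraries. S100a8 and S100a9 sit near 94 and 86 TPM in ME and near 241 and 237 TPM in L28BME, S100a11 and S100a1 are lower in L28BME, and the points of S100a4, S100a6 and S100a10 overlap.

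S100a11 and S100a10, the annexin-binding members, are neighbours in the distal block, and S100a11 passed the test while S100a10 did not. The difference between them was not tested. S100a11 (ENSMUSG00000027907, plus strand, 93520488 to 93526287), the most abundant member in both groups, was at 504, 537 and 526 TPM in ME and at 432, 422 and 438 TPM in L28BME. All L28BME values were below all ME values. It fell by 0.28 on the log2 scale (SE 0.033, 95% interval -0.36 to -0.20, limma adjusted p = 0.00414), and the adjusted p was 0.00962 to 0.0221 without any 1 library. A processed pseudogene, S100a11-ps, was listed at 0 in every library. S100a10 (ENSMUSG00000041959, plus strand, 93555080 to 93564643), which lacks calcium binding and is held by annexin A2, was at 256, 261 and 251 TPM in ME and at 276, 268 and 261 TPM in L28BME. The top of ME and the bottom of L28BME met at 261 TPM. It did not pass, with a log2 fold change of 0.07 (95% interval -0.01 to 0.15, limma adjusted p = 0.234).

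S100a1 and S100a13, which are transcribed from adjacent starts, both had lower values in L28BME. S100a1 (ENSMUSG00000044080) was at 79.4, 91.1 and 86.2 TPM in ME and at 61.6, 63.4 and 68.8 TPM in L28BME. The groups did not overlap, and it fell by 0.40 on the log2 scale (SE 0.067, 95% interval -0.56 to -0.23, limma adjusted p = 0.0142). That call was lost without ME replicate 3 (adjusted p = 0.0526), without L28BME replicate 1 (0.0515) and without L28BME replicate 2 (0.0513), with the direction kept. S100a13 (ENSMUSG00000042312) was at 52.9, 50.9 and 52.0 TPM in ME and at 42.8, 45.8 and 48.0 TPM in L28BME. These values do not overlap either, but S100a13 did not pass, with a log2 fold change of -0.19 (SE 0.053, 95% interval -0.32 to -0.06, limma adjusted p = 0.0668).

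S100a4 and S100a6, the members between these pairs, did not pass. S100a4 (ENSMUSG00000001020, plus strand, 90603771 to 90606045), which promotes cell motility through myosin, was at 344, 356 and 344 TPM in ME and at 351, 355 and 356 TPM in L28BME. The ranges overlap, and the interval of the log2 fold change, -0.04 to 0.09 around 0.02, is narrow (limma adjusted p = 0.591). S100a6 (ENSMUSG00000001025, plus strand, 90612882 to 90624181), calcyclin, was at 47.8, 48.1 and 48.2 TPM in ME and at 48.3, 41.0 and 53.5 TPM in L28BME. The ME values were close together, while L28BME replicate 2 was the lowest and L28BME replicate 3 the highest of all 6. Its log2 fold change was -0.02 with an interval of -0.25 to 0.21 (limma adjusted p = 0.91), and it was 0.08 without L28BME replicate 2. S100a4 shares exonic bases with Gm42674 on its own strand. S100a3 does not overlap S100a4 but is linked to it through Gm42674. With these gene models summed, the log2 fold change of S100a4 was 0.02 (limma adjusted p = 0.594).

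The 6 most abundant members kept their order of mean levels between groups. In ME the means ran from S100a11 (522 TPM) through S100a4 (348), S100a10 (256), S100a8 (93.8), S100a9 (85.7), S100a1 (85.6) and S100a13 (51.9) to S100a6 (48.0 TPM). Only S100a9 and S100a1 overlapped among neighbours in that order. In L28BME S100a8 and S100a9 now stood next to S100a10 (268 TPM), and S100a1 (64.6 TPM) was well below them. There S100a8 and S100a9 overlapped, as did the lowest pair, S100a6 and S100a13, whose means were in the other order. Together the 8 genes made up 0.146 to 0.153% of all TPM in ME and 0.166 to 0.171% in L28BME.

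The rest of the family was almost silent. The table held 10 further S100 genes, of which S100a7a, S100a7l2, S100a16, S100b, S100g and S100z were listed at 0 in every library, and S100a2, S100a3 and S100a14 stayed at or below 0.526 TPM. S100a5, which lies between S100a4 and S100a6, was at 1.32, 3.43 and 1.66 TPM in ME and at 3.32, 3.87 and 3.71 TPM in L28BME. ME replicate 2 lay within the L28BME range, and S100a5 did not pass (log2 fold change 0.62, SE 0.25, limma adjusted p = 0.159). Without ME replicate 2 its adjusted p was 0.0198. S100a5 was the 1 gene of these 10 with enough signal to be tested.

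The other tested genes around the block of 6 members were not called. Of 9 other tested genes within 250 kb of a member, limma called 0 in either direction, against 14.9% of all tested genes. An unadjusted p under 0.05 was reached by 3, but the share of all tested genes at that threshold was not counted. All 9 lie in or beside the block of 6 members, on the same side of S100a8 and S100a9. The nearest member was S100a6 for S100a5 and S100a1 for the rest. Around the block of S100a11 and S100a10, 0 other tested genes lay within 250 kb. Snapin, a SNARE-associated gene, had 53.9 ± 9.05 TPM in ME against 34.2 ± 8.72 TPM in L28BME (log2 fold change -0.66, SE 0.21, adjusted p = 0.0966). Ilf2, which encodes a double-stranded RNA-binding factor, was at 191.6 ± 1.87 and 177.7 ± 3.11 TPM (log2 fold change -0.11, adjusted p = 0.0548). The annotated bodies of Ilf2 and Snapin overlap at one end, on opposite strands. Ilf2 was called lower with median-ratio scaling (adjusted p = 0.0423), with quantile normalization (0.0486), with a minimum of 5 TPM (0.0467) and with protein-coding genes alone (0.0446). Chtop, which borders S100a1, was at 65.97 ± 9.57 and 66.03 ± 12.6 TPM. With any 1 library left out, 0 of the 9 were called, except without ME replicate 2, when S100a5 was called.

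**Figure D2:**
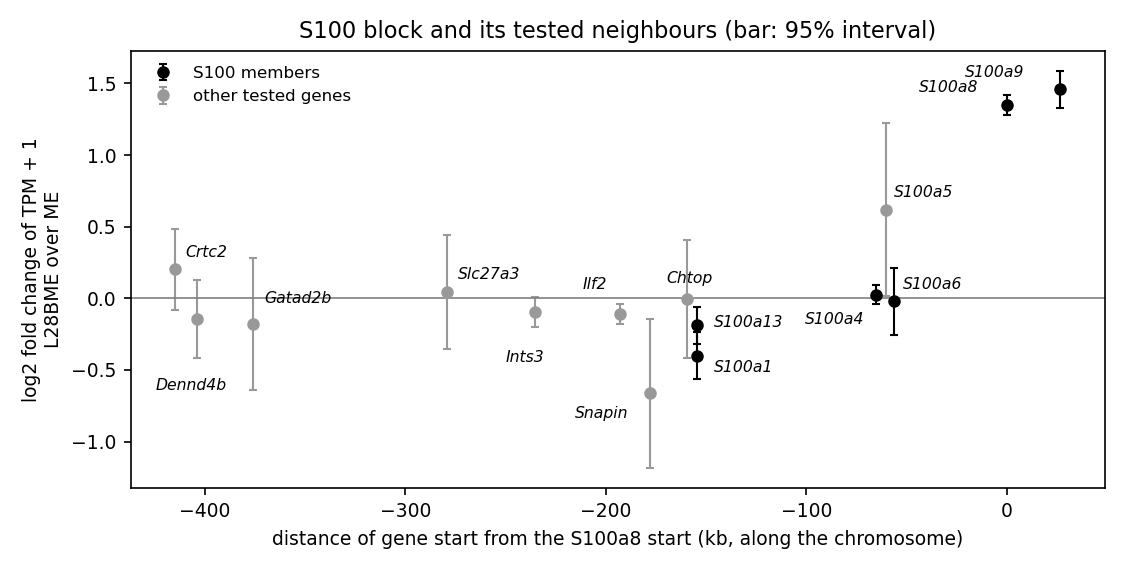
Log2 fold change of TPM + 1, L28BME over ME, with its 95% interval, against the distance of each gene's start from the S100a8 start in kb, for the block of 6 S100 members (black) and 9 other tested genes (grey). S100a8 and S100a9 stand above 1.2 with narrow intervals, while the genes to their left lie near or below 0 apart from S100a5, whose interval is wide.

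S100a8 and S100a9 are also markers of granulocytes, so the other neutrophil markers are given beside them. Of 14 markers, 10 were tested, 5 were called higher and 1 lower in L28BME, against 8.28% and 6.60% of all tested genes. Higher without losing the call under any library left out were Ngp, a secondary granule protein (14.5 ± 0.578 to 36.2 ± 2.06 TPM, log2 fold change 1.26, limma adjusted p = 3.04e-04), Ltf, lactoferrin (4.84 ± 0.19 to 9.42 ± 0.306 TPM, 0.84, adjusted p = 0.00139) and Chil3, a chitinase-like protein (4.21 ± 0.379 to 7.17 ± 0.377 TPM, 0.65, adjusted p = 0.00708). Fcnb, a ficolin, and Mmp8, a neutrophil collagenase, were called at adjusted p = 0.0207 and 0.0353. The Fcnb call was lost without any 1 library other than ME replicate 1 (adjusted p = 0.0611 to 0.0715), and that of Mmp8 without any 1 library other than L28BME replicate 2 (0.0504 to 0.109). The higher markers numbered 3 without ME replicate 2, ME replicate 3 or L28BME replicate 3. Cd177, a neutrophil surface protein, was the lower one (2.42 ± 0.655 to 0.488 ± 0.223 TPM, adjusted p = 0.0133), and it fell under the filter on low values when any ME library was left out.

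Summed over the 14 markers, levels were 99.2 to 103 TPM in ME and 129 to 148 TPM in L28BME, which do not overlap. Lcn2, lipocalin 2, was at 22.5 ± 1.48 and 21.2 ± 5.20 TPM, and Padi4, a histone-modifying enzyme of neutrophils, at 29.7 ± 1.21 and 29.4 ± 1.83 TPM, and neither passed (limma adjusted p = 0.725 and 0.901). Camp, cathelicidin, was at 2.70 ± 0.42 and 5.12 ± 1.72 TPM (adjusted p = 0.095). Retnlg, Mmp9 and Ly6g, markers of mature neutrophils, were at or near 0. Retnlg was listed at 0 in 5 libraries and at 0.259 TPM in L28BME replicate 3. Mmp9 stayed at or below 0.482 TPM, and Ly6g at or below 1.18 TPM. Cxcr2, another such marker, had enough signal to be tested and did not pass (log2 fold change 0.17, limma adjusted p = 0.288). Some genes of granulocyte progenitors and primary granules, which are not in that list, went the other way. Those shown here were chosen after their values were seen. Ms4a3, a membrane protein of granulocyte-monocyte progenitors, was lower at 682 ± 57.6 TPM in ME against 239 ± 3.05 TPM in L28BME (log2 fold change -1.50, limma adjusted p = 1.57e-04). The primary granule protease genes Ctsg (2526 ± 39.9 against 1711 ± 13.6 TPM, -0.56, adjusted p = 1.57e-04) and Elane (1218 ± 27.0 against 851 ± 35.5 TPM, -0.52, adjusted p = 8.9e-04) were lower too. Mpo, myeloperoxidase, was at 5074 ± 19.3 and 4140.1 ± 368 TPM (-0.30, adjusted p = 0.0277), a call lost without any 1 library other than L28BME replicate 3 (0.0662 to 0.09). The part of neutrophil-like cells in the rise of S100a8 and S100a9 was not tested.

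**Figure D3:**
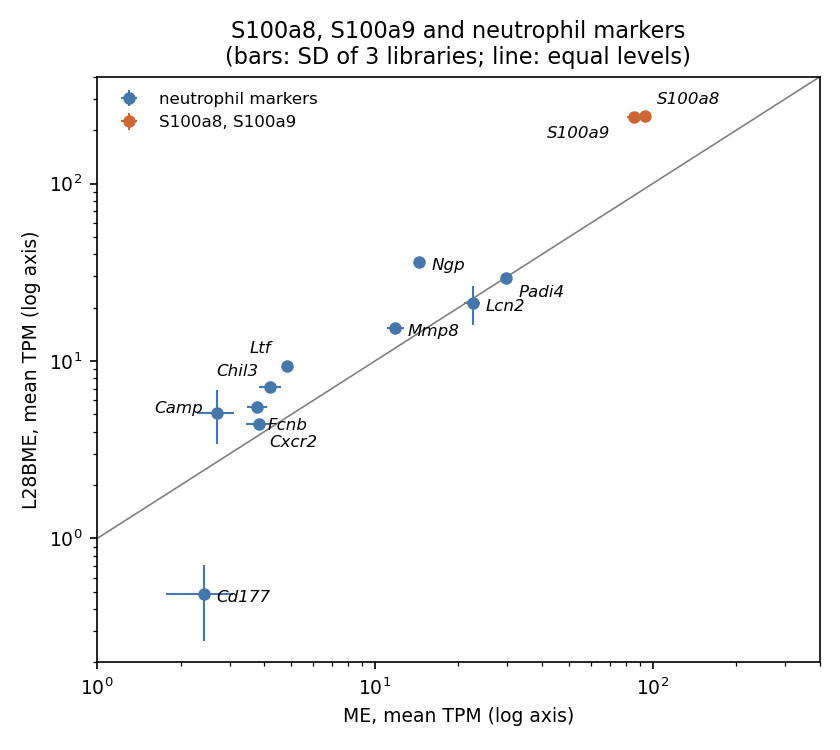
Mean TPM in L28BME against mean TPM in ME on log axes, with the SD of 3 libraries, for S100a8 and S100a9 (orange) and the 10 tested neutrophil markers (blue); the line marks equal levels. S100a8 and S100a9 lie above the line with Ngp, Ltf and Chil3, Lcn2 and Padi4 lie on it, and Cd177 lies below it.

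Markers of other cells did not follow one direction. Over all tested genes, 8.28% were called higher and 6.60% lower. Monocytes also carry calprotectin, and of 13 monocyte and macrophage markers 7 were tested, 4 were called lower and 1 higher. Their summed level was 429 to 453 TPM in ME and 311 to 323 TPM in L28BME. The lower ones were Ly6c2, Ccr2, Cd68 and F13a1. The higher one was Csf1r, whose call was lost without any 1 of the 6 libraries (limma adjusted p = 0.0624 to 0.0941). C1qa and Marco were listed at 0 in every library. Of 6 tested megakaryocyte markers 5 were called higher, and 4 without any 1 library. Their summed level was 81.3 to 85.2 TPM in ME and 137 to 156 TPM in L28BME. Of 6 B cell markers 2 were tested and both were called higher, with a summed level of 372 to 380.03 and 524 to 531 TPM. Of 6 tested mast cell and basophil markers 2 were called lower, and of 3 tested erythroid markers limma called 0. Of 6 sort and progenitor markers 5 were tested, 3 were called lower and 1 higher, with the same counts without any 1 library. Ly6a, which encodes Sca1, was at 9.64 to 11.8 TPM in ME and 1.38 to 3.18 TPM in L28BME. It was called lower (log2 fold change -1.96, limma adjusted p = 0.00376). Cd48 was lower at 291 to 302 and 226 to 231 TPM (-0.38, adjusted p = 8.9e-04), and so was Cd34 (-0.20, 0.00385). Flt3 was higher (0.95, adjusted p = 1.6e-04). Kit did not pass, at 76.5 to 106 TPM in ME and 73.2 to 88.4 TPM in L28BME (adjusted p = 0.311). Slamf1, which encodes CD150, stayed at or below 0.706 TPM. The T cell genes Cd3e and Cd8a were listed at 0 throughout. Lin28b, the check on the labels, had 11.2, 11.7 and 11.9 TPM in L28BME and was listed at 0 throughout ME. Mitochondrially encoded RNA made up 4.12 to 4.35% of TPM in ME and 4.49 to 4.85% in L28BME, and its part in the S100 results was not tested, although the calls of the 8 members were the same with those genes removed.

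Among the factors that bind the S100a8 and S100a9 promoters in other settings, 1 of 6 tested genes was called, close to the 14.9% of all tested genes. Cebpb, a C/EBP factor of myeloid cells, was at 10.4, 10.7 and 9.76 TPM in ME and at 14.8, 12.7 and 15.9 TPM in L28BME. The groups did not overlap, and it was called higher (log2 fold change 0.45, SE 0.093, limma adjusted p = 0.0275). The call was lost without any 1 library other than L28BME replicate 2 (adjusted p = 0.0683 to 0.0883). Cebpe, the C/EBP factor of late granulocytes, was at 22.2 ± 1.64 and 24.3 ± 3.57 TPM, and Spi1, which encodes PU.1, at 103 ± 2.12 and 107 ± 4.65 TPM, and neither passed (adjusted p = 0.554 and 0.473). Cebpa was at 4.18, 4.29 and 3.34 TPM in ME and at 17.4, 5.93 and 4.67 TPM in L28BME, so that its mean in L28BME rests on replicate 1 (adjusted p = 0.248). Stat3 was at 85.4 ± 2.20 and 94.2 ± 1.90 TPM (adjusted p = 0.0534) and Cebpd at 3.02 ± 0.123 and 2.26 ± 0.325 TPM (adjusted p = 0.129). Stat3 was called higher with a minimum of 5 TPM (limma adjusted p = 0.0467), without mitochondrially encoded genes (0.0452) and with protein-coding genes alone (0.0441). Under the other settings tried, 0 to 2 of these genes were called.

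The receptors and adaptors through which released S100 proteins act were followed in the same fit. Of 11 listed genes 9 were tested, 0 were called higher by limma and 2 lower, against 14.9% of all tested genes called in either direction. An unadjusted p under 0.05 in either direction was reached by 2, a threshold at which all tested genes were not counted. Cd14, a TLR4 co-receptor, had 15.0 ± 1.35 TPM in ME against 10.7 ± 0.772 TPM in L28BME (log2 fold change -0.45, adjusted p = 0.0232), and Myd88, the adaptor of TLR4, at 75.5 ± 1.07 and 64.9 ± 2.15 TPM (-0.21, adjusted p = 0.0185). Both calls were lost without any 1 library other than L28BME replicate 3 (adjusted p = 0.0529 to 0.0667 for Cd14 and 0.0531 to 0.0621 for Myd88). Tlr4 itself was uneven, at 3.32, 3.82 and 14.9 TPM in ME and at 4.03, 13.5 and 4.41 TPM in L28BME, with 1 high library in each group. Ager, which encodes RAGE, was at 3.09 ± 0.493 and 3.34 ± 0.642 TPM (adjusted p = 0.771). Emb and Bsg, which encode the S100 receptors embigin and basigin, were abundant and close between groups. Emb was at 746 ± 10.1 and 756 ± 6.88 TPM and Bsg at 494 ± 11.9 and 490.2 ± 11.97 TPM (adjusted p = 0.639 and 0.872). Ly96, which encodes the TLR4 partner MD-2, was at 6.23 and 4.52 TPM (adjusted p = 0.232), and Cd36 was listed at 0 in every library.

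The intracellular partners of the other members come next. Of 11 listed partners 10 were tested, with 1 called higher and 1 lower, a share near the 14.9% of all tested genes. Anxa6, which encodes an annexin that binds S100A1 and S100A6, rose from 124 ± 3.65 to 159 ± 4.38 TPM (0.35 on the log2 scale, SE 0.038, limma adjusted p = 0.00317). Trp53, whose product p53 is bound by S100A4, was at 231 ± 7.11 and 204 ± 3.00 TPM and was called lower (log2 fold change -0.18, adjusted p = 0.02), but not without any 1 library other than ME replicate 3 (adjusted p = 0.0508 to 0.0701). Anxa2, the partner of S100A10, was at 323, 290 and 271 TPM in ME and at 250, 263 and 268 TPM in L28BME. These values do not overlap, yet Anxa2 did not pass (log2 fold change -0.17, adjusted p = 0.155). The ratio of S100a10 to Anxa2 TPM was 0.792 to 0.924 in ME and 0.973 to 1.11 in L28BME. Anxa1, a partner of S100A11, was at 61.7 ± 1.13 and 60.5 ± 7.05 TPM (adjusted p = 0.84). Cacybp, the calcyclin-binding protein, was at 289 ± 9.18 and 301 ± 1.37 TPM (adjusted p = 0.271), and Myh9, the myosin bound by S100A4, at 195 ± 6.45 and 208 ± 13.5 TPM (adjusted p = 0.33). Ahnak, a scaffold bound by S100A10 and annexin A2, was at 1.80 ± 0.325 and 2.84 ± 0.183 TPM (adjusted p = 0.0538). It was called higher by limma without the intensity trend (adjusted p = 0.0335) and with protein-coding genes alone (0.0369). Anxa11 was at 20.6 and 23.0 TPM (adjusted p = 0.0889) and Ppp5c, a phosphatase, at 170 and 207.5 TPM (adjusted p = 0.176).

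Annexins beyond these partners were lower where they were called. Over the whole annexin family 9 genes were tested, 3 were called lower, and Anxa6 was called higher, with the same counts without any 1 library. Over all tested genes, 6.60% were called lower and 8.28% higher. Anxa5, the phosphatidylserine-binding annexin, fell from 171 ± 3.90 to 111 ± 0.864 TPM (-0.62 on the log2 scale, SE 0.031, limma adjusted p = 3.04e-04). Anxa3 fell from 188 ± 6.48 to 137 ± 7.16 TPM (-0.46, adjusted p = 0.00308) and Anxa9 from 20.6 ± 0.462 to 13.3 ± 0.834 TPM (-0.60, adjusted p = 0.00305). Anxa7 and Anxa4 did not pass, and Anxa8, Anxa10 and Anxa13 were listed at 0.

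**Figure D4:**
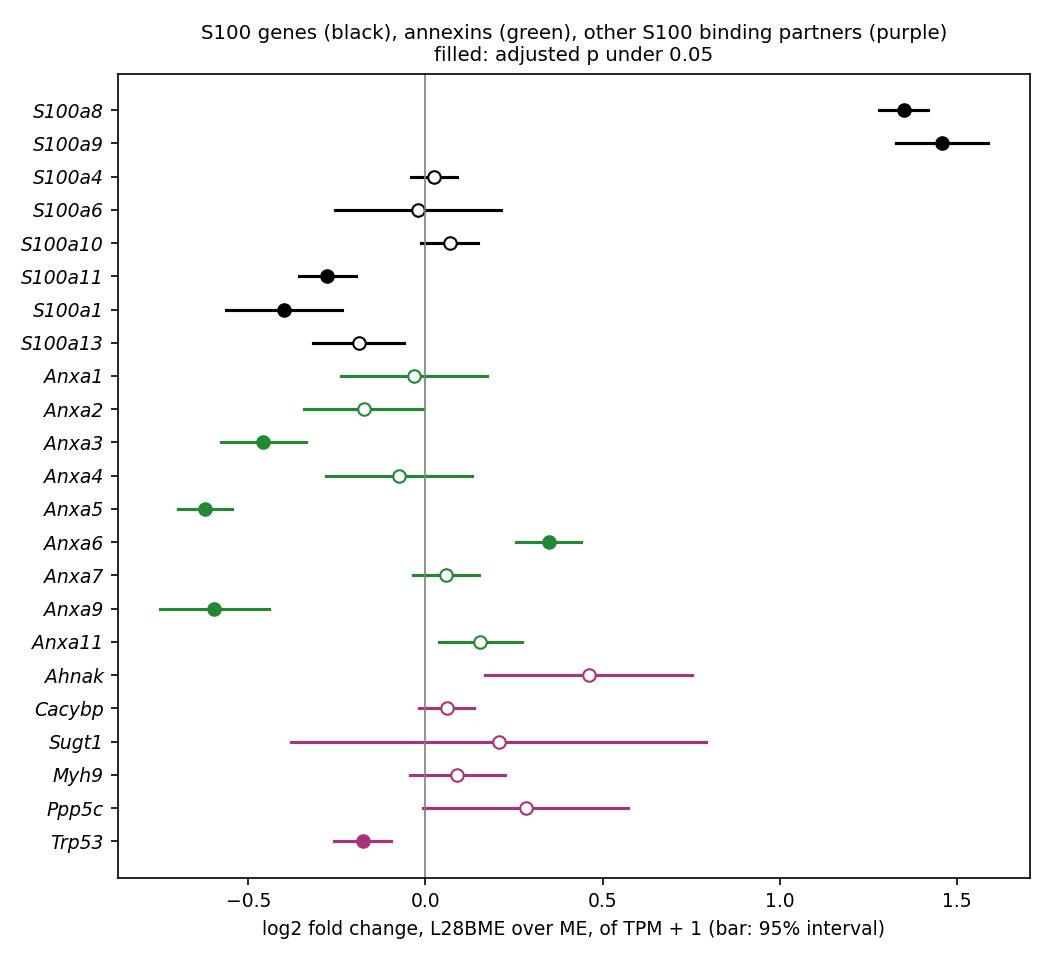
Log2 fold change of TPM + 1, L28BME over ME, with its 95% interval, for the 8 S100 genes (black), 9 annexins (green) and 6 other binding partners (purple); filled points have adjusted p under 0.05. S100a8 and S100a9 lie at 1.35 and 1.46, beyond every annexin and partner shown, and Anxa5, Anxa9 and Anxa3 lie between -0.62 and -0.46.

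Of 18 other tested genes with EF-hand loops, limma called 0 higher and 2 lower, a share near the 14.9% of all tested genes. An unadjusted p under 0.05 was reached by 5, without a count of all tested genes at that threshold. Lcp1, which encodes the actin-bundling protein plastin 2, fell from 780 ± 81.8 to 544 ± 36.9 TPM (-0.52 on the log2 scale, adjusted p = 0.0138, and 0.0522 without L28BME replicate 1). Rcn1, reticulocalbin 1, fell from 60.3 ± 2.41 to 48.4 ± 1.23 TPM (-0.31, adjusted p = 0.00856). Lower genes numbered 1 without L28BME replicate 1 and 3 without L28BME replicate 3. The calmodulin genes Calm2 and Calm3 were at 820 ± 40.6 and 802 ± 2.40 TPM and at 285 ± 5.33 and 280.2 ± 6.74 TPM (adjusted p = 0.657 and 0.666).

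The genes with the most similar profiles were sought for each called member as the smallest Euclidean distance of log2(TPM + 1), centred on the gene's own mean, over the 6 libraries. Nearest to S100a8 were Ptafr, the receptor for platelet-activating factor (5.43 to 15.1 TPM, distance 0.0835), Slc35d3, a solute carrier (11 to 29.2 TPM, 0.109), and Mycl, a MYC family gene (0.899 to 3.62 TPM, 0.159). Near S100a9 were Pou2f2, a transcription factor known from B cells (4.41 to 14.3 TPM, 0.126), and Fcgrt, the neonatal Fc receptor (4.39 to 12.8 TPM, 0.185). The subunits of calprotectin were 0.214 apart, which placed S100a9 at rank 14 from S100a8 and S100a8 at rank 4 from S100a9. Nearest to S100a11 were Gabarapl1, Rassf3 and Nrp1, and nearest to S100a1 were Snhg6, Dtnbp1 and Hrh2, all lower in L28BME. With overlapping gene models summed, Nrp1 had a log2 fold change of 0.03 (limma adjusted p = 0.956), and its call was also lost without any 1 library (0.0592 to 0.0864). The call of Hrh2 was lost without any 1 library other than ME replicate 1 (0.0682 to 0.0786). A shared profile over 6 libraries of 2 groups reflects mainly a like difference between the groups.

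The members have short transcripts and short 3′ UTRs, which bears on whether let-7, the microRNA family that LIN28B holds back, could pair with them through its seed. The mature sequence is shown for that search, from RefSeq, with its seed (bases 2 to 8) in capitals.
mmu-let-7a-5p: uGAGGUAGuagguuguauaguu
The matching letters CTACCTC were found in no annotated 3′ UTR of the 8 members, whose longest 3′ UTRs run from 68 bases in S100a8 to 294 bases in S100a1. They were present in 10.5% of 10882 tested genes with a 3′ UTR, whose median length was 1152 bases. Among the 1607 tested genes with a 3′ UTR no longer than that of S100a1, 1.18% held them. The absence of these letters says nothing of pairing elsewhere in the transcripts.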

How the data were processed

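The deposited values are gene-level TPM that the authors computed per library. The submitters' processing notes name bcl2fastq, HISAT2, StringTie and DESeq2 with GRCm38; the sources used here give no versions and do not say whether strand was used. Libraries were made with a stranded mRNA kit, per the labels' protocols. A deposited column of percent GC entered no test. Library sums of TPM ran from 999919 to 999996, and 13215 to 13288 genes reached 1 TPM. Depth is unknown, so no counting interval is given.

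The 60496 entries were summed by gene ID, with at most 1 entry per ID holding values. Genes with at least 1 TPM in at least 3 of 6 libraries were tested on log2(TPM + 1) with limma 3.58.1 in R 4.3.3 (intensity trend, two-sided), with Benjamini-Hochberg adjustment over all 13348 genes. The procedure was tested on simulated data. Gene bodies and 3′ UTRs came from GENCODE M21 (GRCm38). Members and gene lists were chosen with earlier results of these data known. Named genes were the 8 members, list genes that were called or had the 6 smallest p, called neighbours, the 3 nearest profiles and Lin28b. Ilf2, Snapin, Chtop, S100a2, Ms4a3, Ctsg, Elane, Mpo and some list genes shown for their role were chosen after their values were seen. A gene that the rule names near S100a9 is not reported here. Figures were drawn with matplotlib 3.10.9.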

Additional observations from a re-analysis of the deposited data

How the results depend on the processing

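The 8 members were refitted under 18 alternatives: 2 pseudocounts, 2 filters, 3 scalings, 2 limma options, a term for replicate number, summed overlapping gene models, protein-coding genes alone, and each of the 6 libraries left out. S100a8 and S100a9 were called higher and S100a11 lower in each. The members called lower numbered 1 to 2 with a library left out, since S100a1 lost its call 3 times, and 3 with quantile normalization, where S100a13 passed (adjusted p = 0.04995). The log2 fold change of S100a6 ran from -0.11 to 0.080 with a library left out, and was positive without L28BME replicate 2. Over all genes, 592 to 694 were called higher and 447 to 566 lower with a library left out. Same-numbered libraries did not deviate together (correlations of -0.03, -0.07 and -0.05), so numbers were not treated as pairs. With a replicate block, 548 genes were called higher and 400 lower, and the calls of the 8 members did not change. Without counts, the precision of low genes such as S100a5 cannot be given.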
